A study of Homo sapiens with 6 samples.

Results

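The ERK feedback phosphatases DUSP4, DUSP5 and DUSP6, the Sprouty genes SPRY1, SPRY2 and SPRY4, the SPRED genes SPRED1 and SPRED2, and the PEA3 transcription factors ETV4 and ETV5 were examined in PANC-1 cells after treatment with anlotinib. The 10 genes were chosen by name, and every probe set of the array whose annotation gives exactly 1 gene symbol from these names was taken, with no measured value in the rule. The names were chosen with earlier results of these data known, so the comparisons with all probe sets are descriptions. This gave 27 of the 39219 probe sets in the deposited table, and all 27 were among the 39063 probe sets that entered the test, which cover 15253 genes. The authors had removed probe sets of low signal before the table was deposited, so probe sets of the 10 genes below that limit are not among the 27.

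PANC-1 is an established cell line from a human pancreatic ductal cancer, and anlotinib is a small molecule that inhibits several receptor tyrosine kinases, among them receptors for VEGF, FGF and PDGF. The treated group was 3 samples of PANC-1 cells that received anlotinib at 5.535 μM for 48 h. The control group was 3 samples of the same line that received DMSO, the solvent, for the same 48 h. Total RNA was hybridized to Affymetrix PrimeView arrays, 1 array per sample, and no source used here says whether the 3 samples of a group came from separate cultures, so p-values measure only the spread between these samples, which may be technical. All results are for 1 line, 1 dose and 1 time, and because RNA was pooled over the cells of a sample, a change in RNA per cell and a change in the share of cells that express a gene cannot be told apart.

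ERK, the last kinase of the cascade that runs through RAS, RAF and MEK, turns on genes whose products limit the cascade itself. The DUSP enzymes take phosphate off MAP kinases, Sprouty and SPRED proteins act further up, at the receptors, RAS and RAF, and the PEA3 factors are ETS-family transcription factors whose genes respond to FGF receptors and ERK. Transcripts of this kind are widely read as a gauge of ERK signalling.

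Levels are given as log2 signals made with RMA, and a difference of 1 between levels is a 2-fold change. A probe set is said to have risen or fallen where the adjusted p (limma, Benjamini-Hochberg over all 39063 probe sets) was under 0.05, and it is said to have been called where the fold change was also at least 2. Where a gene had several probe sets, the brightest is that whose signal, averaged over the 6 arrays, was highest. Levels of different probe sets are not set against each other, since each depends on its probes.

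Over the whole table, the 6 arrays had medians between 7.71 and 7.77, pairs of arrays within a group correlated at 0.9978 to 0.9984, and pairs across the groups at 0.9768 to 0.9784. Of the epithelial markers KRT7, KRT8, KRT18, KRT19 and EPCAM all 5 were present, with log2 signals from 6.89 to 14.61, and all 5 fell at their brightest probe sets, and their summed linear signal went from 54293 to 54461 on the DMSO arrays to 35166 to 35519 on the anlotinib arrays. Of 6 leukocyte markers 3 were measured, with summed signals of 347 to 351 against 892 to 971. Of these, CD68 was called higher, with a log2 fold change of 1.96. CD14 (−0.23) and CD3E (−0.14) did not pass at their brightest probe sets (limma, adjusted p = 0.0743 and 0.0978). PTPRC, the marker that all leukocytes share, had no tested probe set with 1 symbol. Summed signals were 233 to 269 against 238 to 249 for 5 of 5 endothelial markers, 171 to 198 against 152 to 162 for 3 of 7 fibroblast and stellate markers, and 187 to 216 against 180 to 208 for 3 of 6 acinar and endocrine markers. By limma 0 of these 11 were called, while 6 fell by less than 2-fold, where 29.7% of all genes fell at any fold. The part of these shifts in the results was not tested.

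Most of the feedback genes moved by less than 2-fold, and they did not move as one group. Of the 27 probe sets, 1 was called higher and 0 lower, where 2.38% of all tested probe sets were called higher and 1.71% lower. Without a limit on the fold, 15 of the 27 rose, against 28.3% of all probe sets, 4 fell, against 28.3%, and 8 did not pass. The median log2 fold change was 0.37 over the 27 probe sets and −0.02 over all probe sets. The anlotinib and DMSO arrays did not overlap at 16 probe sets that were higher, against 31.5% of all, and at 4 that were lower, against 31.6%.

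Counted by gene at the brightest probe set, 1 of the 10 genes was called higher, against 2.1% of all genes, and 0 were called lower, against 1.91%. At any fold 6 rose (DUSP4, DUSP5, DUSP6, SPRY2, ETV4 and ETV5), against 25.4%, and 3 fell (SPRY1, SPRED1 and SPRED2), against 29.7%, while SPRY4 did not pass. When the median over each gene's probe sets was taken instead, the 6 still rose, but none of the 3 passed. The median at the brightest probe set was 0.28 for the 10 genes and −0.04 for all genes. Probe sets of 1 gene were read from the same RNA samples and are not independent. In addition, 2 of the SPRY1 probe sets hold the same values on all 6 arrays, so that the 27 are 26 distinct measurements.

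**Figure D1:**
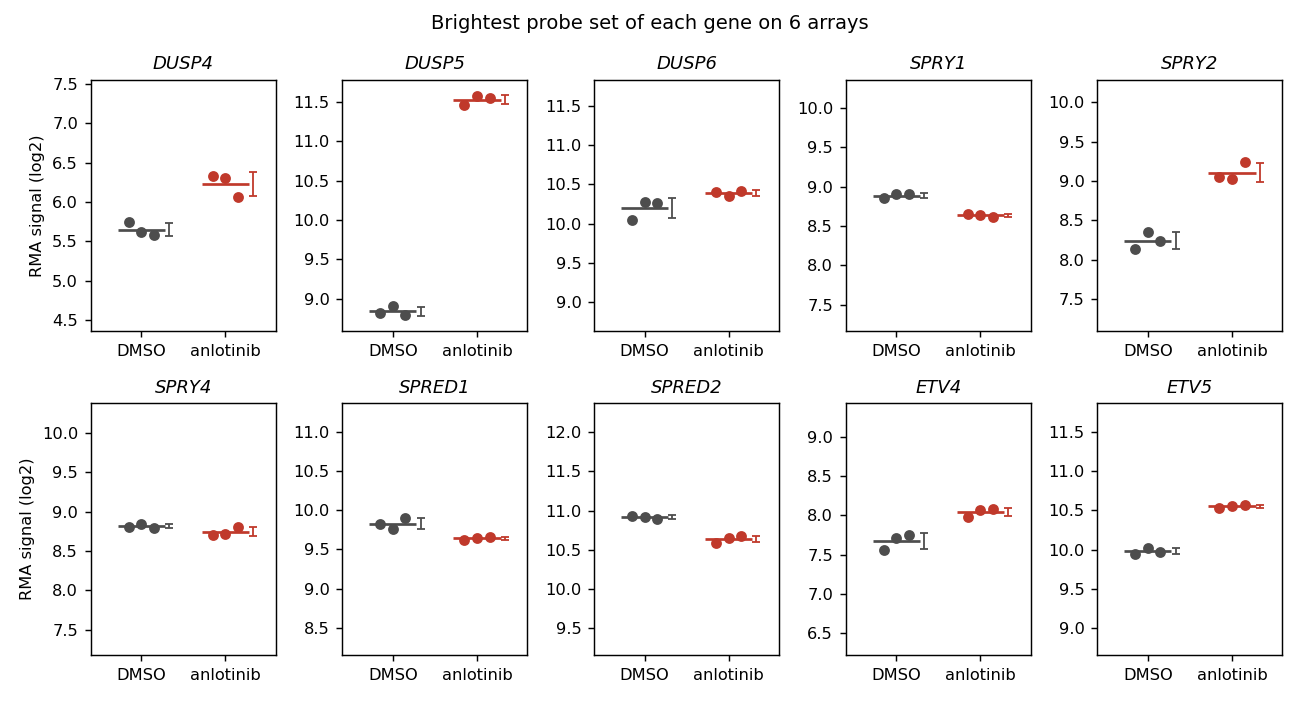
Log2 RMA signal (vertical axis) of the brightest probe set of each of the 10 genes on the 3 DMSO arrays (grey points) and the 3 anlotinib arrays (red points), with the group mean as a horizontal bar and 1 SD as the bracket beside it. Every panel spans the same length of log2 scale, and DUSP5 is the panel in which the groups lie farthest apart, near 8.84 with DMSO and 11.53 with anlotinib.

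The phosphatases DUSP4, DUSP5 and DUSP6 all rose, and DUSP5 was the one member called. DUSP5 (chr10:110497907-110511533, GRCh38.p14), a nuclear phosphatase that acts on ERK, had 1 probe set, with log2 signals of 8.81, 8.90 and 8.80 on the DMSO arrays and 11.46, 11.57 and 11.55 on the anlotinib arrays. All 3 anlotinib arrays lay far above the DMSO arrays, with no overlap. The log2 fold change was 2.69 (SE 0.05, 95% confidence interval 2.57 to 2.81, n = 3 per group), which is 6.45-fold, with an adjusted p of 5.77e-07 in limma. DUSP5 ranked 17 by size among the 321 genes called higher at their brightest probe sets.

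DUSP4 (chr8:29333064-29350684), another nuclear phosphatase of MAP kinases, had log2 signals of 5.74, 5.62 and 5.58 with DMSO and 6.33, 6.30 and 6.06 with anlotinib. The groups did not overlap, and the third anlotinib array was the lowest of its group. The log2 fold change was 0.58 (SE 0.08, adjusted p = 7.45e-04), at a mean signal in percentile 24.5 of the table, near its lower end.

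DUSP6 (chr12:89347235-89352501), the cytoplasmic phosphatase with a strong preference for ERK, had 4 probe sets and rose at each. The brightest gave 10.05, 10.27 and 10.27 with DMSO and 10.40, 10.35 and 10.42 with anlotinib, where the groups do not overlap and the first DMSO array is apart from the other 2. Its log2 fold change was 0.19 (SE 0.07) with an adjusted p of 0.0440, and it did not pass without DMSO array 1, without any 1 of the 3 anlotinib arrays, or after a second quantile normalization. Its adjusted p lay between 0.00242 and 0.113 in the 13 alternatives that test against no change. The other 3 probe sets had log2 fold changes of 0.47, 0.45 and 0.50 (adjusted p = 1.72e-04, 1.04e-04 and 4.93e-04), which passed in the same 13 alternatives. At each of these 3 the change was larger than at the brightest probe set, by 0.27, 0.26 and 0.30 on the log2 scale (limma over 20559 pairs of probe sets, adjusted p = 0.0208, 0.0191 and 0.0353, lost in 4, 4 and 5 of the 13 alternatives, in all 3 cases without DMSO array 2, DMSO array 3 or anlotinib array 2).

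The differences between the phosphatases were tested on the per-array differences of their brightest probe sets. The change of DUSP5 exceeded that of DUSP4 by 2.11 (SE 0.12) and that of DUSP6 by 2.50 (SE 0.08) on the log2 scale, with no overlap of the arrays in either, and that of DUSP4 exceeded that of DUSP6 by 0.39 (SE 0.16), with overlap. The exact two-sided permutation p was 0.1 for the first 2 pairs, the smallest that 3 against 3 arrays can give, and 0.2 for the third, and over the 8 pairs compared within the subfamilies these became 0.133 and 0.229, and this permutation test cannot pass 0.05 with 3 against 3 arrays.

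The profile of DUSP5 over the 6 arrays, taken as the difference from the DMSO mean, was closest among 15243 other genes to those of GEM, a small GTPase of the RAD and GEM family, TMEM156, a membrane protein, and H2BC5, a histone H2B. The root mean square differences were 0.113, 0.114 and 0.129 on the log2 scale. Their log2 fold changes were 2.63 for GEM, 2.54 for TMEM156 and 2.85 for H2BC5. The genes were matched on the same 6 arrays, so this is a description.

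The Sprouty genes did not move together. SPRY2 (chr13:80335976-80341126), an adaptor that restrains signalling from FGF and other receptors, was the member with the largest log2 fold change after DUSP5 at the brightest probe set. Its 1 probe set had log2 signals of 8.13, 8.35 and 8.23 with DMSO and 9.05, 9.02 and 9.25 with anlotinib. All 3 anlotinib arrays were above all 3 DMSO arrays. The log2 fold change was 0.87 (SE 0.08, adjusted p = 8.12e-05), or 1.83-fold, with a 95% confidence interval of 0.68 to 1.06 that takes in the 2-fold limit.

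SPRY1 (chr4:123396795-123403760), an inhibitor of the same kind, went the other way at its brightest probe set, with 8.85, 8.91 and 8.90 under DMSO and 8.66, 8.64 and 8.62 under anlotinib. The groups were narrow and did not overlap. The log2 fold change was −0.25 (SE 0.04, adjusted p = 0.00118). The other 2 SPRY1 probe sets, whose values are identical, gave −0.10 (adjusted p = 0.288) with overlapping arrays, and the difference of 0.16 from the brightest did not pass (adjusted p = 0.209). Among all tested probe sets, 112 share their 6 values with another.

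SPRY4 (chr5:142310430-142325021), which also acts on the path from receptors to RAF, did not pass at any of its 3 probe sets. The brightest had 8.81, 8.85 and 8.80 with DMSO and 8.71, 8.71 and 8.81 with anlotinib. The first and second anlotinib arrays lay below the DMSO arrays and the third among them. The log2 fold change was −0.07 with a 95% confidence interval of −0.18 to 0.03 (adjusted p = 0.203), and the other 2 probe sets, at percentiles 15.4 and 3.49 of signal, gave 0.01 and −0.11.

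Between the Sprouty genes, the log2 change of SPRY2 exceeded that of SPRY1 by 1.12 (SE 0.09) and that of SPRY4 by 0.95 (SE 0.06), and that of SPRY1 was below that of SPRY4, at a difference of −0.18 (SE 0.05). The arrays did not overlap in any of the 3 differences, and each had the smallest exact permutation p, 0.1 (0.133 over the 8 pairs). The plot of log2 fold changes at all probe sets shows the same split, with the SPRY2 interval at the 2-fold limit and those of the brightest SPRY1 and SPRY4 probe sets centred below 0.

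**Figure D2:**
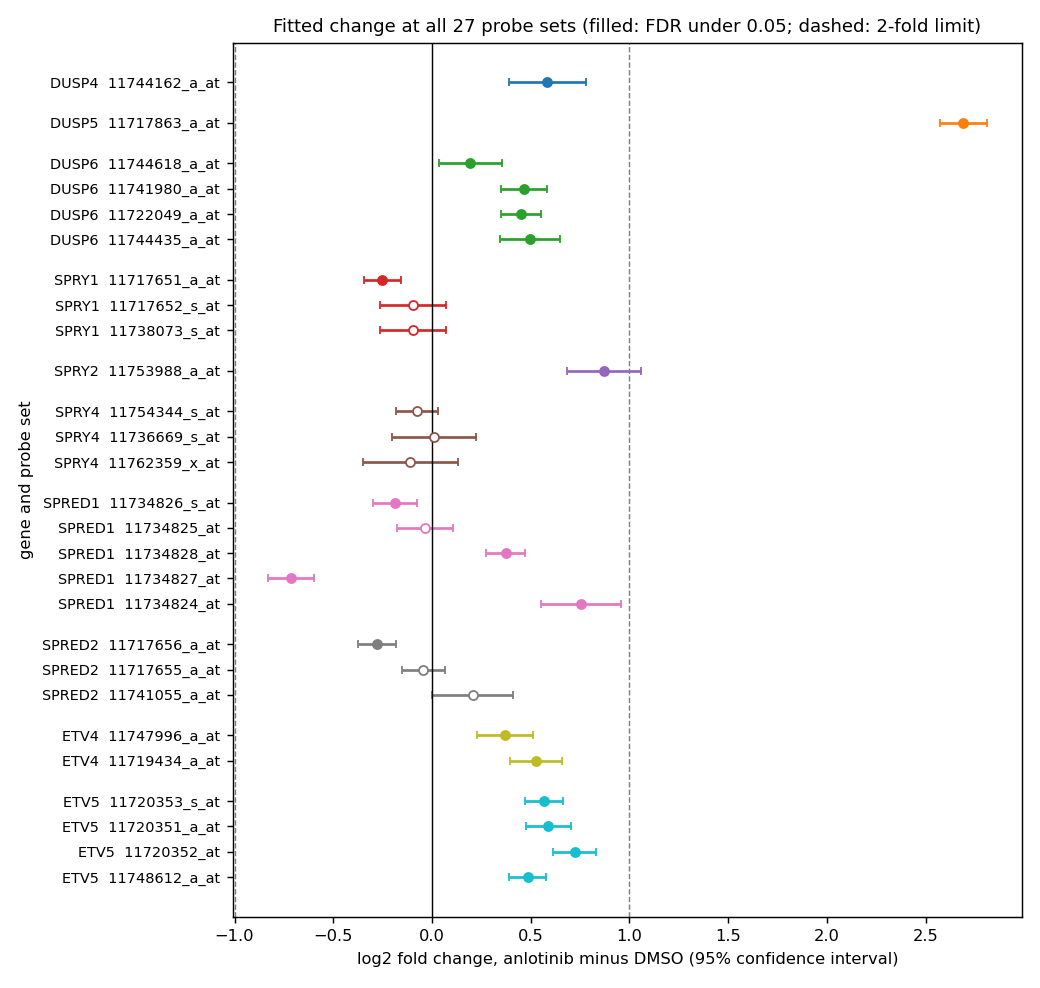
Log2 fold change, anlotinib minus DMSO, with its 95% confidence interval (horizontal axis) at each of the 27 probe sets, grouped and coloured by gene, each gene from its brightest probe set down. Filled points had an adjusted p under 0.05, open points did not, and dashed lines mark the 2-fold limit, which DUSP5 alone exceeds, at 2.69.

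Promoter sequences are shown for DUSP6 and SPRY2, which rose, and for SPRY4, which did not pass, because PEA3 factors and other ETS proteins bind DNA at a short core that can be looked for in each. They are the 250 bases before an annotated start, from RefSeq on GRCh38.p14. Windows of 6 of the 10 genes, 10 in all, were examined. This count does not show that the other genes lack an annotated start. Capitals mark matches on either strand to the ETS core CGGAA, which reads TTCCG on the other strand, and to the CRE half-site TGACG, and an AP-1 site TGANTCA and a CArG box were also looked for. DUSP6 is chr12:89352502-89352751, SPRY2 is chr13:80341127-80341376 and SPRY4 is chr5:142324248-142324497, all on the minus strand and written 5′ to 3′.
DUSP6: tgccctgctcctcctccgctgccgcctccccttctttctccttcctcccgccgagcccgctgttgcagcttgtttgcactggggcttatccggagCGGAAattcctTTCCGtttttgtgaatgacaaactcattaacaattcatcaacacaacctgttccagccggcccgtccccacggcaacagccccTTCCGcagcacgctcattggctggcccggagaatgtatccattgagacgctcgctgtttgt
SPRY2: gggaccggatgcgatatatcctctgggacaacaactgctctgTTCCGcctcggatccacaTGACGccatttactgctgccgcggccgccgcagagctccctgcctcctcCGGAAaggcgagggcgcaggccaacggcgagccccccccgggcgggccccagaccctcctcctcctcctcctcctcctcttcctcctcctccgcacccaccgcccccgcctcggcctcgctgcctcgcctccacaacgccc
SPRY4: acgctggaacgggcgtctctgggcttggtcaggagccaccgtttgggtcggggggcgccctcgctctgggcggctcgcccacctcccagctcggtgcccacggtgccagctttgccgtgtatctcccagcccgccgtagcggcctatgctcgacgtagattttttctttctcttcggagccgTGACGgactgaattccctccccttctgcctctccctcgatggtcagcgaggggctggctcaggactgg

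The DUSP6 window held 3 ETS cores, 2 of them between bases 155 and 140 before the start and the third between bases 61 and 57. The SPRY2 window held 2, at bases 208 to 204 and 141 to 137, with 1 CRE half-site at bases 190 to 186, and the other 2 SPRY2 windows held no match. The SPRY4 window held 1 CRE half-site, at bases 68 to 64, and no ETS core. It lies inside the span of the gene, before an inner start, and no window beyond the outer end, at 142325021, was among those examined. The DUSP6 and SPRY2 windows shown lie just beyond the outer ends of their genes, so the 3 are not alike in place. Of the remaining windows, 1 of SPRY1 held 1 ETS core, and those of SPRED1 and SPRED2 held no match to any of the 4 motifs. Over 35116 windows of the same length 30.3% held the ETS core, 21.2% the CRE half-site, 6.57% the AP-1 site and 1.16% the CArG box, and a match is given as a description of the letters only.

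SPRED1 (chr15:38252836-38357249), which recruits neurofibromin to switch off RAS, gave opposite readings at its probe sets. Of its 5 probe sets, 2 rose, 2 fell and 1 did not pass. Genes with probe sets that rose and others that fell made up 656 of the 9232 genes with several probe sets (7.11%).

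The brightest SPRED1 probe set, 11734826_s_at, had log2 signals of 9.83, 9.76 and 9.90 with DMSO and 9.62, 9.65 and 9.66 with anlotinib, a change of −0.19 in log2 signal (SE 0.05, adjusted p = 0.0124). Probe set 11734827_at had 8.96, 9.03 and 8.93 with DMSO and 8.19, 8.29 and 8.30 with anlotinib, a change of −0.71 in log2 signal (SE 0.05, adjusted p = 2.23e-05). At both probe sets all anlotinib arrays were below all DMSO arrays, and the gap was wider at the second. Probe set 11734828_at had 8.46, 8.52 and 8.48 with DMSO and 8.81, 8.89 and 8.88 with anlotinib, a change of 0.37 in log2 signal (SE 0.04, adjusted p = 2.36e-04). Probe set 11734824_at had 5.37, 5.58 and 5.59 with DMSO and 6.12, 6.36 and 6.32 with anlotinib, a change of 0.75 in log2 signal (SE 0.09, adjusted p = 2.38e-04) at percentile 23.8 of signal. At these the order was turned, with all anlotinib arrays above all DMSO arrays. The fifth, 11734825_at, gave −0.04 (adjusted p = 0.634) with overlapping arrays.

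The disagreement was larger than the spread between arrays. Measured against the brightest SPRED1 probe set, the log2 change was higher by 0.94 (SE 0.09, adjusted p = 3.01e-04) at 11734824_at and by 0.56 (SE 0.06, adjusted p = 5.46e-04) at 11734828_at. It was lower at 11734827_at, at a difference of −0.52 (SE 0.07, adjusted p = 0.00137). These 3 differences passed in every alternative that could give a value, while that of 11734825_at (0.15, adjusted p = 0.202) did not pass in any. The probe sets of the 10 genes formed 16 pairs with the brightest of their gene, of which 8 differed, against 31.2% of all such pairs, and the count was 4 without DMSO array 3 and 5 without DMSO array 2 or anlotinib array 2. Where on the SPRED1 transcripts each probe set lies was not analysed here.

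**Figure D3:**
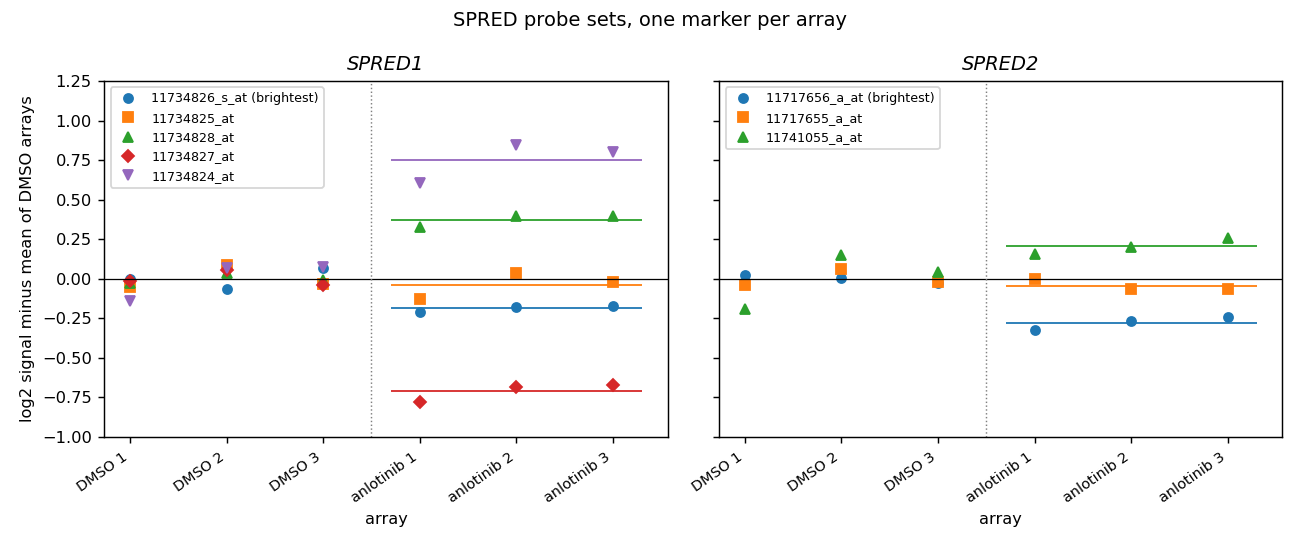
Log2 signal minus the mean of the 3 DMSO arrays (vertical axis) for each probe set of SPRED1 and SPRED2 on each of the 6 arrays (horizontal axis), 1 marker shape and colour per probe set, with the mean of the anlotinib arrays as a line. SPRED1 probe sets spread from −0.71 to 0.75 around 0 on the anlotinib arrays, and those of SPRED2 from −0.28 to 0.21.

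SPRED2 (chr2:65307175-65432599), the close relative of SPRED1, fell at its brightest probe set, from 10.94, 10.92 and 10.89 with DMSO to 10.59, 10.64 and 10.67 with anlotinib. The groups did not overlap, and the log2 fold change was −0.28 (SE 0.04, adjusted p = 9.09e-04). A dimmer probe set, 11741055_a_at, had 7.31, 7.66 and 7.55 against 7.66, 7.71 and 7.77, where the highest DMSO array and the lowest anlotinib array all but touch. Its log2 fold change of 0.21 did not pass (adjusted p = 0.0845, and 0.0252 to 0.205 among 13 alternatives), though it passed without DMSO array 2, after the filter on the lowest 40% of signals, and with trend and robust eBayes. The third gave −0.04 (adjusted p = 0.456). The changes at these 2 probe sets were above that of the brightest by 0.48 (adjusted p = 0.00736) and 0.24 (adjusted p = 0.0249), the second of which was lost without DMSO array 1 or 3 or anlotinib array 1. At the brightest probe sets the changes of SPRED1 and SPRED2 differed by 0.09 (SE 0.05), with overlapping arrays and an exact permutation p of 0.3 (0.3 over the 8 pairs).

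The PEA3 factors ETV4 and ETV5 rose at all 6 of their probe sets, by 0.37 to 0.72 on the log2 scale. ETV5 (chr3:186046314-186109089) had 9.95, 10.03 and 9.97 with DMSO and 10.53, 10.55 and 10.57 with anlotinib at its brightest probe set. The arrays of each group lay close together and the groups far apart. The log2 fold change was 0.57 (SE 0.04, adjusted p = 2.64e-05), and the other 3 probe sets gave 0.59, 0.72 and 0.49, all of them with no overlap between groups and none different from the brightest past the threshold (adjusted p = 0.813, 0.1003 and 0.265).

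ETV4 (chr17:43527846-43546340), its closest relative among the members, had 7.56, 7.71 and 7.75 with DMSO and 7.98, 8.06 and 8.09 with anlotinib at the brightest probe set, a change of 0.37 in log2 signal (SE 0.06, adjusted p = 0.00146). The second probe set had 7.47, 7.39 and 7.30 against 7.92, 7.86 and 7.95, a change of 0.53 in log2 signal (SE 0.06, adjusted p = 1.61e-04). At both probe sets every anlotinib array exceeded every DMSO array, and the changes at the 2 probe sets did not differ past the threshold (0.15, adjusted p = 0.271). The change of ETV4 was below that of ETV5, at a difference of −0.20 (SE 0.05) between brightest probe sets, with no overlap and an exact permutation p of 0.1 (0.133 over the 8 pairs).

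ETV1, the third PEA3 factor, together with SPRY3 and SPRED3 made up the rest of the families. ETV1 fell at its brightest probe set by 0.41 on the log2 scale (SE 0.04, adjusted p = 1.96e-04), and all 8 of its probe sets fell, with log2 fold changes from −0.53 to −0.21. It had the opposite sign to ETV4 and ETV5. SPRY3 (−0.07) and SPRED3 (−0.13) did not pass (adjusted p = 0.571 and 0.124), and 0 of the 3 genes were called. Their median was −0.13.

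Among 7 other dual-specificity phosphatases of MAP kinases, DUSP1, DUSP2, DUSP7, DUSP8, DUSP9, DUSP10 and DUSP16, all 7 were measured, 4 rose, 0 fell and 3 did not pass at the brightest probe sets, with a median of 0.26. The shares over all genes were 25.4% risen and 29.7% fallen. DUSP10, which acts on p38 and JNK, had a change of 0.96 in log2 signal (SE 0.05, adjusted p = 5.81e-06) at the brightest probe set, just under the limit, and was called at 2 of its 3 dimmer ones (1.09 and 1.19). DUSP1, an early response phosphatase, had 0.89 (SE 0.04, adjusted p = 4.40e-06) and rose at all 4 of its probe sets. At the brightest probe sets 0 of the 7 were called, against 2.1% of all genes called higher and 1.91% lower. Counted at any probe set 1 was called, and no share over all genes was taken for that count.

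The receptors and the cascade above ERK held genes of both signs. Of 11 receptor kinases that anlotinib inhibits, 10 were measured and 0 called, 1 rose and 2 fell, with a median of −0.07. Among all genes 25.4% rose and 29.7% fell. FGFR2, an FGF receptor, fell by 0.62 on the log2 scale (SE 0.04, adjusted p = 1.39e-05) at its brightest probe set, with −0.66 to 0.02 at the others. FGFR1 rose by 0.22 (SE 0.05, adjusted p = 0.00625) at its brightest and had −0.42 to 0.11 at the others. Several of the receptors were dim at their brightest probe sets. KIT lay at percentile 0.123 of signal, PDGFRA at 9.90, and PDGFRB, FGFR3, RET and KDR at 23.5 to 26.6. FLT4 and FGFR4 lay at 37.8 and 41.5, and FGFR2 and FGFR1 at 65.3 and 66.1. Whether the dim ones are expressed was not tested.

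Of 22 genes of the cascade from RAS to ERK, 15 were measured and 0 called, with a median of −0.10. Of these 3 rose, against 25.4% of all genes, and 5 fell, against 29.7%. The RAS exchange factors SOS2 and SOS1 had the largest changes, −0.62 (SE 0.06, adjusted p = 1.51e-04) and −0.49 (SE 0.04, adjusted p = 6.86e-05). SOS2 had −0.32 and −0.33 at its other probe sets, all of which fell. SOS1, like SPRED1, rose at some of its probe sets (0.36 and 0.43) and fell at others (−0.49 and −0.39).

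Of 25 other transcripts that follow ERK activity, 22 were measured, 4 were called higher and 0 lower, 14 rose and 3 fell at any fold, and the median was 0.37. Over all genes 25.4% rose and 29.7% fell at any fold. MAFF, a small MAF transcription factor, had a change of 1.72 in log2 signal (SE 0.05, adjusted p = 1.20e-06) and EGR1, an early response factor, 1.72 (SE 0.05, adjusted p = 8.91e-07). HBEGF, a ligand of the EGF receptor, had 1.41 (SE 0.06, adjusted p = 3.64e-06) and PLAUR, the urokinase receptor, 1.20 (SE 0.07, adjusted p = 8.79e-06). These 4 were the genes of the list called at the brightest probe set, against 2.1% of all genes. Counted at any probe set 6 were called, and no share over all genes was taken for that count. Among those not called at the brightest probe set the largest were FOSL1, an AP-1 subunit, with 0.84 and with 1.14 to 1.20 at 3 dimmer probe sets that were called, and MYC, with 0.64. The dimmer EGR1 probe sets gave 1.89, 1.58, 0.11 and 0.45. FOS did not pass at its brightest probe set (0.12, adjusted p = 0.161 in limma) and was called at dimmer ones (1.04 and 1.45). The 3 genes that fell were ERRFI1 (−0.39), PHLDA1 (−0.23, with −0.93 to 0.09 at dimmer probe sets) and IER3 (−0.11).

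**Figure D4:**
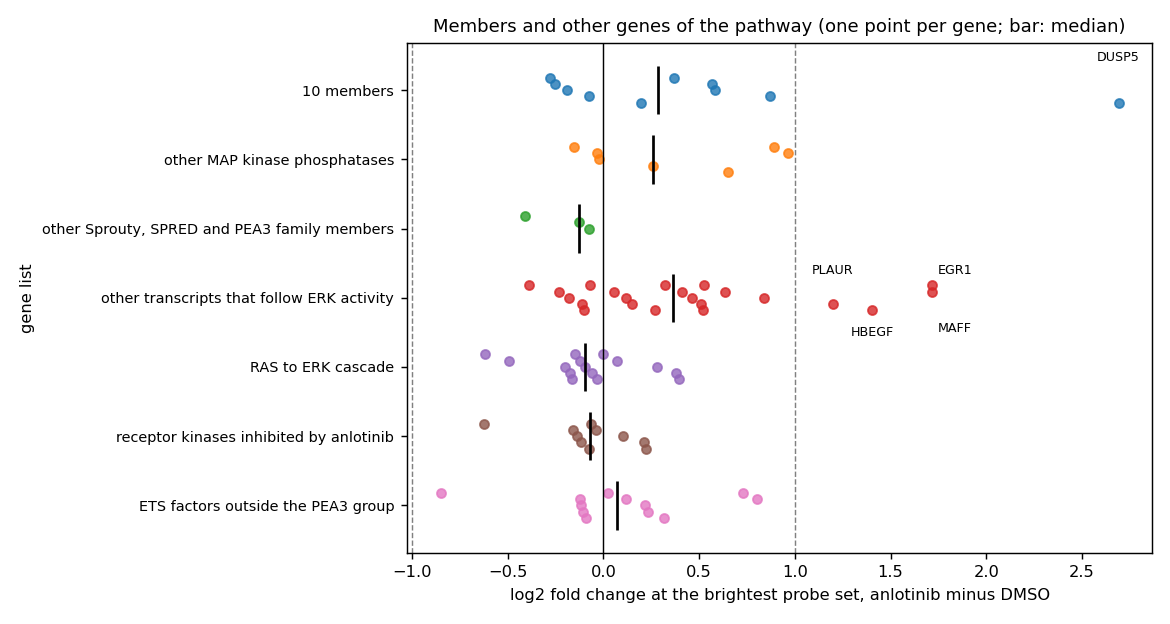
Log2 fold change at the brightest probe set, anlotinib minus DMSO (horizontal axis), for the 10 genes and for 6 lists of other genes of the pathway, 1 point per measured gene, with the list's median as a black bar and dashed lines at the 2-fold limit. Genes past 2-fold are named; DUSP5 (2.69) lies farthest from 0, ahead of MAFF and EGR1 (1.72 each).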

How the data were processed

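PANC-1 RNA from 3 anlotinib and 3 DMSO samples was read on PrimeView arrays. For the deposited log2 values, the authors ran RMA (background adjustment, normalization between arrays, summary per probe set) and filtered out probe sets in the lowest 20% of signals or with a CV above 25% within a group. The values are not centred.

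Probe sets were named through GEO's platform annotation, and the 10 symbols matched RefSeq by entrez identifier. From the 39219 probe sets left by that filter, 73 controls were left out here. The methods give no scale for the CV, and a further 83 probe sets above the same 25% on the linear scale, against 0 on the log2 scale, were left out as well. The rest went through lmFit and eBayes of limma (version 3.58.1, R version 4.3.3, 2.98 prior degrees of freedom) and were adjusted by Benjamini-Hochberg over 39063 probe sets, and called at 2-fold and FDR under 0.05, as the methods state. Pairs of probe sets of a gene were fitted by limma on per-array differences, and pairs of genes by exact two-sided permutation. Arrays give no counts, so their number limits the precision.

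The members and lists were chosen with earlier results of these data known. Named genes are the 10 members at every probe set, from each list up to 4 called genes and 2 not called with the largest change at the brightest probe set, further probe sets where these disagree, and the 3 genes closest to each called member. A few list genes were named besides, among them FOS, ERRFI1, PHLDA1 and IER3. The alternatives left out the CV filter, or took the CV from log2 values, and tried the lowest 40% of signals left out, a second quantile normalization, centring, a limit of 1.5-fold or none, limma's treat, trend and robust eBayes, the replicate number as a block, each array left out, and for genes the brightest, the median or no cross-hybridizing probe sets. The fit was tested on simulated data with planted shifts of 2-fold or more, which does not cover smaller changes.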

Additional observations from a re-analysis of the deposited data

How the results depend on the processing

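The counts moved with the fold limit. At 1.5-fold 3273 probe sets of the table were called higher and 2868 lower, with 5 and 1 of the 27 probe sets and, with a gene counted at any probe set and SPRED1 therefore on both sides, 4 and 1 of the 10 genes. With no fold limit they were 11047 and 11048, 15 and 4, and 7 and 3, again with SPRED1 on both sides. With treat against 1.5-fold they were 1597 and 1326, and the members' counts stayed at 1 and 0, with DUSP5 alone past the threshold of that test. The count of 8 probe set pairs that differed was 5 with the replicate block, and 4 to 8 with an array left out. The labels do not say whether arrays of the same replicate number are paired. Their deviations from the group means correlated at 0.17, 0.0063 and −0.14, which cannot decide it with 3 arrays per group. With the replicate block the brightest DUSP6 probe set did not pass (limma, adjusted p = 0.0575), while 1 member gene was called as before.

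Signs turned at 2 probe sets, neither past the threshold. SPRY4 11736669_s_at went from 0.01 to −0.00243 with centring, and lay between −0.0630 and 0.0939 with an array left out (−0.0483 without anlotinib array 1). SPRED1 11734825_at lay between −0.0739 and 0.00794 with an array left out, and was 0.00548 without DMSO array 2. Of 428 alternatives for single probe sets 400 kept direction and call, 23 were called only under a lower fold limit or none, and 5 turned sign. Of 243 for counts and comparisons 225 stayed within their limits. DUSP5 ranged from 2.67 to 2.72 and was called in all 13 alternatives that refitted it.

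With the median over each gene's probe sets, 1 gene was called, and DUSP6 had 0.48. SPRED1 (−0.11), SPRY1 (−0.10) and SPRED2 (−0.04) did not pass there (limma, adjusted p = 0.0733, 0.286 and 0.453). Without cross-hybridizing probe sets the brightest of SPRED1 had −0.04 and that of ETV5 0.59. The further filter on signal left out DUSP4, the 2 dimmer SPRY4 probe sets and SPRED1 11734824_at, which have no value under it.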

Other observations

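The PEA3 factors belong to the ETS family, and of 13 ETS genes outside the PEA3 group 12 were measured, 0 were called at the brightest probe set, 4 rose and 1 fell by limma, with a median of 0.07. The shares over all genes were 25.4% risen and 29.7% fallen. ELF3, an epithelial ETS factor, fell by 0.85 on the log2 scale at its brightest probe set (SE 0.06, adjusted p = 1.99e-05), with −0.85 and −0.82 at the other 2. ETS1, the family's founding member, changed by 0.80 in log2 signal (SE 0.04, adjusted p = 7.55e-06) at its brightest probe set, where signals averaged 11.89 with DMSO and 12.69 with anlotinib. Its 2 dimmer probe sets were called, at 1.60 (SE 0.06) and 2.47 (SE 0.06). ELF1 had 0.73 (SE 0.04, adjusted p = 1.21e-05), with 0.40 and 0.67 at its other probe sets. ETV4 and ETV5, at 0.37 and 0.57, lay below ETS1 and ELF1 in size of log2 fold change, and these differences were not tested.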
